A study of Mus musculus with 8 samples.

Results

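The interferon-stimulated gene families of mouse liver were followed in an alcohol feeding experiment. Members were taken from the count table by symbol: the numbered *Ifi* genes, *Ifih1*, and the genes whose names open with *Ifit* (which takes in *Ifitm*), *Oas*, *Gbp*, *Irgm*, *Iigp* and *Isg*, together with *Igtp*, the numbered *Irf* genes, *Mx1*, *Mx2*, some genes of the *Stat* family, *Usp18*, *Rsad2*, *Bst2*, *Ddx58*, *Dhx58* and *Zbp1*. The rule gave 75 of the 19267 genes in the table. A mean of at least 10 counts over the 8 libraries was reached by 67 of them, which were tested, as against 13145 of all genes. The other 8 (*Ifi205*, *Ifi214*, *Ifit1bl1*, *Ifit1bl2*, *Ifitm5*, *Ifitm6*, *Ifitm10* and *Irf4*) were too low to test.

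Type I and type III interferons bind receptors that activate STAT proteins, which join IRF9 to form a complex that binds the interferon-stimulated response element (ISRE) in promoters. Type II interferon (IFN-gamma) acts mainly through STAT pairs that bind the gamma-activated site (GAS). In the liver, hepatocytes, Kupffer cells (the resident macrophages) and sinusoidal endothelial cells all carry receptors for type I interferon, and the induced genes encode proteins that sense viral nucleic acids, block viral replication, attack membranes around microbes or tune the response itself.

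RNA was measured in whole livers of male C57BL/6 mice at 9 weeks of age, after 21 days on a Lieber-DeCarli liquid diet. Alcohol made up 5% (w/v) of the diet in the EtOH groups, and maltose dextrin of equal calories took its place in the Control groups. WT mice carried the Cre transgene, and *Elf4-/-* mice were bred from *Elf4* fl/fl and Villin-Cre mice, so that the deletion was driven in the intestinal epithelium and the liver was not the targeted tissue. The 4 groups, named WT-Control, WT-EtOH, *Elf4-/-*-Control and, for the mutants on alcohol, *Elf4-/-*-EtOH, had 2 libraries each. The labels do not say whether the 2 replicates of a group came from separate animals, so that p-values measure the spread between these libraries.

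Promoters of 4 members that hold an ISRE core are shown as examples. Not every member held one, as given below. *Isg15*, which had the largest fall of all members, holds 3 overlapping ISRE cores, *Ifit1* holds 2 on the opposite strand, *Ifitm2*, which rose, holds 1, and *Igtp*, a target of IFN-gamma, holds 1 together with a GAS. Each line gives the 150 bases before the RefSeq start in GRCm38.p6, 5′ to 3′ in the sense of the gene, with ISRE cores in capitals: *Isg15* at chr4:156200819-156200968 (minus strand), *Ifit1* at chr19:34640739-34640888 (plus strand), *Ifitm2* at chr7:140955962-140956111 (minus strand) and *Igtp* at chr11:58199406-58199555 (plus strand).
Isg15: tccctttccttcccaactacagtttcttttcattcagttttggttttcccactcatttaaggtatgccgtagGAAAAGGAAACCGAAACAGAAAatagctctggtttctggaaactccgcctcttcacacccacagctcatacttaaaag
Ifit1: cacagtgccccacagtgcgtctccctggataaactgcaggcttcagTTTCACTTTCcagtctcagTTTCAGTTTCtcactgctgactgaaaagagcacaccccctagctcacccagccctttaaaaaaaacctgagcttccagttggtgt
Ifitm2: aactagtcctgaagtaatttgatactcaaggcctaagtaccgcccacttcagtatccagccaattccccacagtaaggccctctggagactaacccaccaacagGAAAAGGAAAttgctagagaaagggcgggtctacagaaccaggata
Igtp: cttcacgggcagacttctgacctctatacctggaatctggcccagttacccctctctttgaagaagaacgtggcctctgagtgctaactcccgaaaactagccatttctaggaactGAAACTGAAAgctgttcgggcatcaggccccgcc

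The ISRE core searched was GAAA, any 2 bases, GAAA, on both strands with overlapping matches counted, and the GAS was TTC, any 3 bases, GAA, which reads the same on both strands. Within the 250 bases before a start, 30 of the 54 members with a RefSeq promoter entry held an ISRE core (55.56%), as against 936 of 27025 genes (3.46%). A GAS was found in 12 members (22.22%) and in 2197 genes (8.13%). An ISRE core stood in 5 of 5 *Gbp* promoters with an entry, 7 of 8 *Ifi200* promoters, 5 of 6 *Ifit* promoters, 4 of 6 *Oas* promoters and 3 of 4 promoters of the immunity-related GTPases. It stood in 2 of 9 promoters of the transcription factors, 2 of 7 of the other members, 1 of 6 *Ifitm* promoters (that of *Ifitm2*) and 0 of 2 promoters of the sensors. The core stood in 4 of 8 members with an entry that fell with alcohol in WT livers and in 2 of 4 that rose. These matches describe letters in a window and not bound sites.

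The libraries held 6171051 to 9157362 counts. The members took 0.2141% to 0.2943% of them, and the 27 genes of the mitochondrial genome took 33.685% and 23.421% in WT livers on the control diet and 12.539% and 10.773% with alcohol, as against 18.705% and 18.456%, and 22.13% and 18.326%, in *Elf4-/-* livers on these diets. This share thus moved with the diet contrast in WT, and its part in the members' values was not tested. Levels are given as normalised CPM (counts scaled to library size with TMM factors), with replicates 1 and 2 in that order. *Elf4* had 6 and 11 counts in WT livers on the control diet and 27 and 36 with alcohol, and 12 and 6 counts in *Elf4-/-* livers on the control diet and 14 and 34 with alcohol. These liver counts do not check an intestinal deletion.

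The first question was what 21 days of alcohol did to these families in WT livers. Alcohol lowered *Isg15*, *Usp18*, *Ifit1*, *Mx2*, the RNA sensor *Ddx58*, the GTPase *Iigp1* and 6 transcription factors, and raised 3 genes of the *Ifi200* family, *Ifitm1*, *Ifitm2* and *Ifit2*. In all, 12 of 67 members passed the test as lower (17.9%, where 11.2% of all genes tested did) and 6 as higher (8.96%, where 11.6% of all genes did). The median log2 fold change of the members was −0.16, against 0.01 over all genes. Scaling libraries by their totals alone moved the median of all genes to 0.43. There 7 of 67 members passed as lower and 16 as higher, where 617 and 3368 of 13145 genes did. The split of the calls thus depended on the scaling, among members and among all genes. In whole liver, fewer cells of a type and less RNA per cell cannot be told apart.

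**Figure D1:**
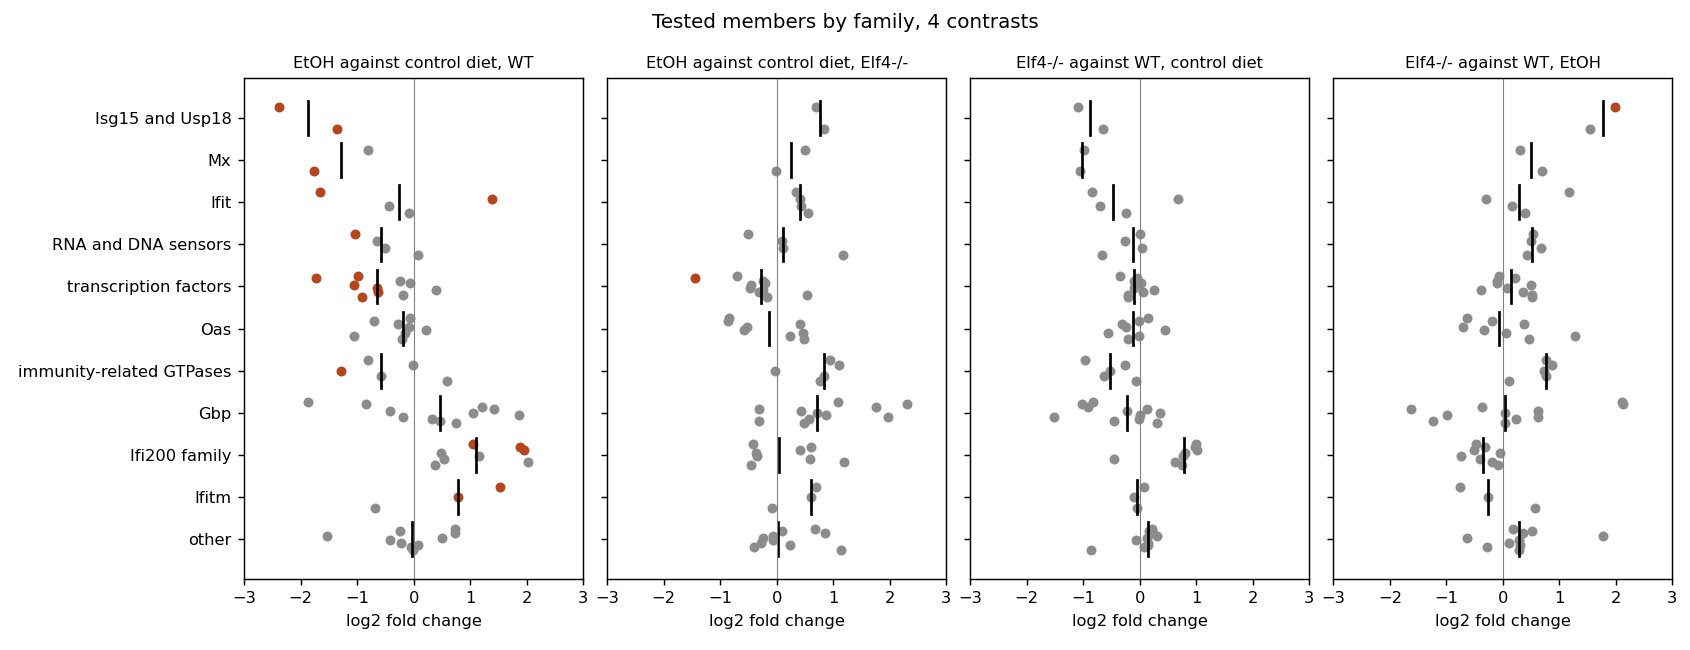
Log2 fold change (horizontal axis) of the 67 tested members by family in 4 contrasts, with 1 point per gene, a bar at the family median, and genes past an adjusted p of 0.05 in red. In WT livers 12 members passed as lower and 6 as higher with alcohol, all 8 tested *Ifi200* genes stood to the right of 0, and in the 3 other contrasts 1, 0 and 1 members passed.

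*Isg15*, a ubiquitin-like protein that is joined to other proteins during the interferon response (chromosome 4, 156199424 to 156200818, minus strand), was measured at 20.3 and 28.0 CPM in WT-Control and 5.20 and 4.08 CPM in WT-EtOH livers. It was at 12 and 10.5 CPM in *Elf4-/-*-Control and 21.8 and 15.1 CPM in *Elf4-/-*-EtOH livers. The WT-EtOH libraries were the lowest of the 8, and they overlapped no other group. *Isg15* fell 5.21-fold with alcohol in WT (log2 fold change −2.38 ± 0.29 (SE), edgeR adjusted p = 0.0019), and the fall passed without any single library, at −2.60 to −2.14. The same diet in *Elf4-/-* livers gave a log2 fold change of 0.70 ± 0.27 (edgeR adjusted p = 0.173).

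*Usp18*, the protease that takes ISG15 off its targets and dampens signalling from the type I receptor (chromosome 6, 121245906 to 121270917, plus strand), had 15.3 and 24.7 CPM in WT-Control and 8.87 and 6.74 CPM in WT-EtOH livers. It had 12.4 and 13.1 CPM in *Elf4-/-*-Control and 28.0 and 17.6 CPM in *Elf4-/-*-EtOH livers. Again the WT-EtOH libraries were below all others. *Usp18* fell 2.57-fold in WT (−1.36 ± 0.32, edgeR adjusted p = 0.0164). The call was lost without WT-Control replicate 2, WT-EtOH replicate 1 or WT-EtOH replicate 2, with values of −0.98, −1.56 and −1.17. The value in *Elf4-/-* livers was 0.84 ± 0.31 (edgeR adjusted p = 0.154).

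*Ifit1*, which binds viral RNA that lacks the host's cap methylation (chromosome 19, 34640871 to 34650009, plus strand), had 36.7 and 34.5 CPM in WT-Control, 11.8 and 10.7 CPM in WT-EtOH, 18.9 and 20.9 CPM in *Elf4-/-*-Control and 22.6 and 27.9 CPM in *Elf4-/-*-EtOH livers. None of the 4 groups overlapped another. *Ifit1* fell 3.17-fold with alcohol in WT (−1.66 ± 0.20, edgeR adjusted p = 0.00186), and this passed without any single library (−1.73 to −1.60). Its value in *Elf4-/-* livers was 0.35 ± 0.19 (edgeR adjusted p = 0.325).

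*Ifit2*, another RNA-binding member of the family, moved the other way. It had 2.98 and 2.38 CPM in WT-Control, 6.59 and 7.35 CPM in WT-EtOH, 4.70 and 3.86 CPM in *Elf4-/-*-Control and 6.85 and 4.62 CPM in *Elf4-/-*-EtOH livers, and rose 2.60-fold in WT (1.38 ± 0.38, edgeR adjusted p = 0.0285). The call was lost without either WT-Control replicate (1.55 and 1.22) or either WT-EtOH replicate (1.45 and 1.29). Within the *Ifit* family, then, 1 of 4 tested genes fell and 1 rose in WT (11.2% and 11.6% of all genes did), and the other 2 did not pass.

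*Mx2*, a dynamin-like antiviral GTPase (chromosome 16, 97535308 to 97560900, plus strand), had 29.1 and 24.3 CPM in WT-Control and 9.13 and 6.53 CPM in WT-EtOH livers. In *Elf4-/-* livers it had 12.1 and 13.5 CPM on the control diet and 12.6 and 12.7 CPM with EtOH. *Mx2* fell 3.42-fold with alcohol in WT (−1.77 ± 0.25, edgeR adjusted p = 0.00263), also without any single library (−2.02 to −1.55), and had a value of −0.01 ± 0.24 in *Elf4-/-* livers (edgeR adjusted p = 0.978), where the groups overlapped. *Mx1* had 7.83 and 5.12 CPM in WT-Control and 2.67 to 5.81 CPM in the other 6 libraries and passed in no contrast. Most laboratory mouse strains carry defective *Mx* alleles, and the annotation lists *Mx2* as a polymorphic pseudogene, so these are transcript levels only.

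**Figure D2:**
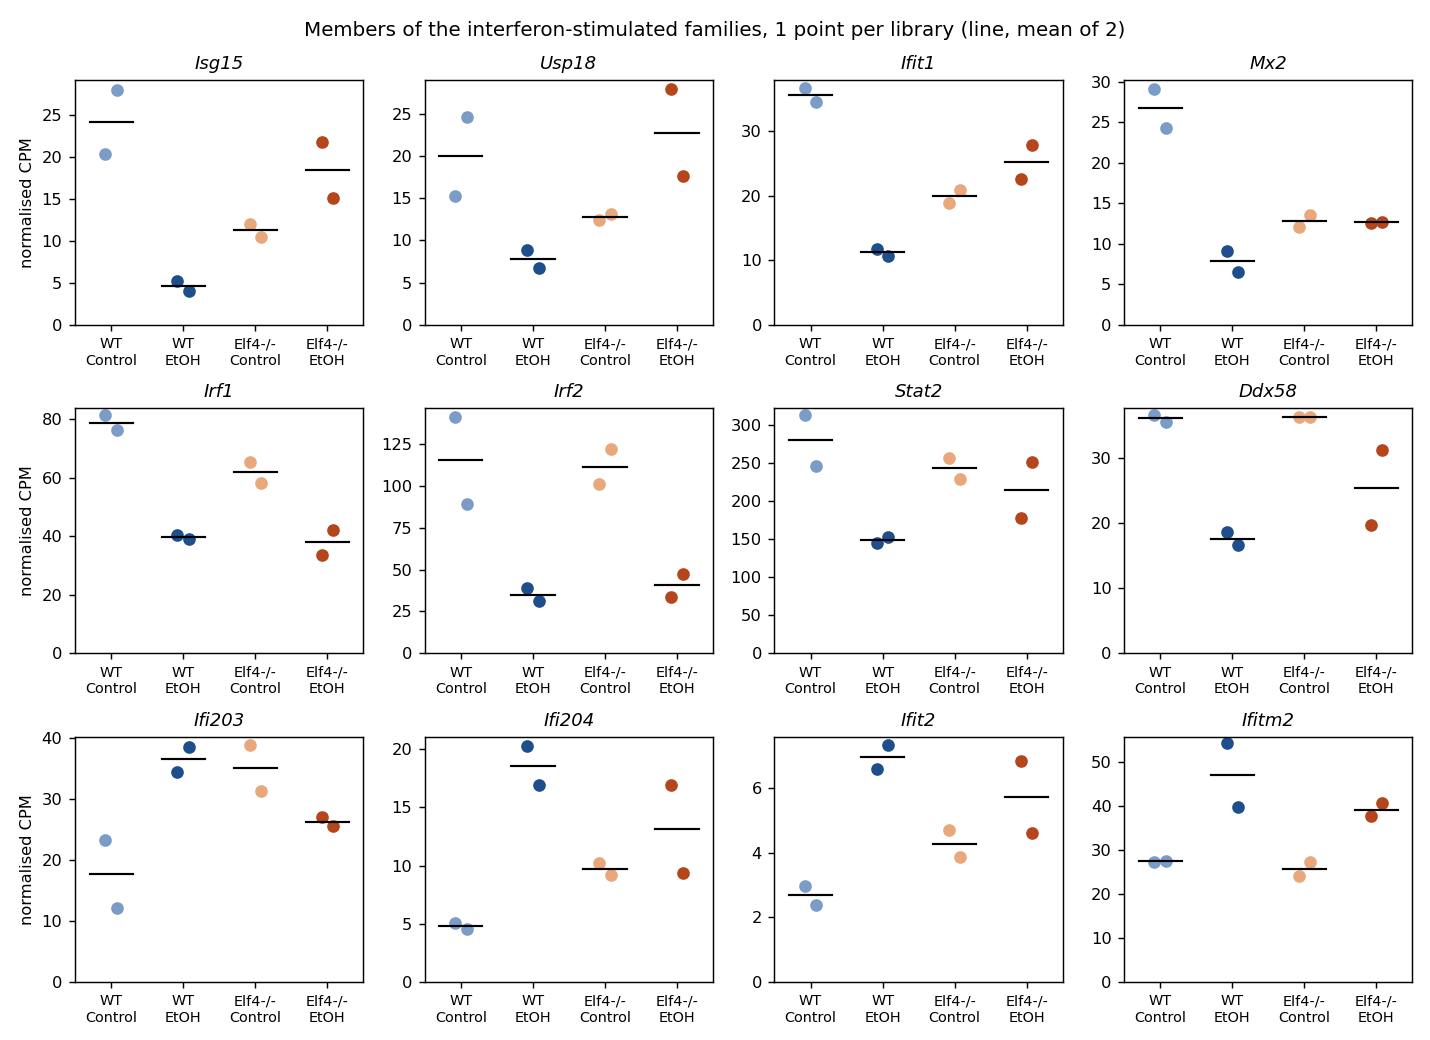
Normalised CPM (vertical axes, from 0) of 12 members in the 8 libraries, with 1 point per library and a line at the mean of 2. *Isg15*, *Usp18*, *Ifit1* and *Mx2* were lowest in the WT-EtOH libraries (*Isg15*, 5.20 and 4.08 CPM), whereas *Irf1* and *Irf2* were low in both EtOH groups.

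Of the transcription factors, 6 of 10 tested fell with alcohol in WT, where 11.2% of all genes did, and 0 rose, where 11.6% did. *Irf2*, which binds the sites of *Irf1* and mostly holds induced genes in check (chromosome 8, 46739732 to 46847458, plus strand), had 141 and 89.5 CPM in WT-Control and 38.8 and 31.3 CPM in WT-EtOH livers. The *Elf4-/-* libraries had 101 and 122 CPM on the control diet and 33.9 and 47.3 CPM with EtOH. Both EtOH groups lay below both control groups. *Irf2* fell 3.29-fold in WT (−1.72 ± 0.27, edgeR adjusted p = 0.00378), and the call held without any single library (−2.01 to −1.36). It also fell 2.73-fold in *Elf4-/-* livers (−1.45 ± 0.27, edgeR adjusted p = 0.0281).

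*Irf2* was the 1 member called lower with alcohol in *Elf4-/-* livers (1.49% of members, where 1.34% of all genes passed as lower), and 0 of 67 were called higher there by edgeR (where 1.94% of all genes were). At an unadjusted p under 0.05, 14 members were higher (20.9%, where 11.3% of all genes were) and 6 lower (8.96%, where 10.6% were) in that contrast. DESeq2 called 2 members higher (*Igtp* and *Gbp6*) and 1 lower, where it called 452 of 12380 genes higher and 359 lower. The call of *Irf2* in *Elf4-/-* livers was lost without WT-EtOH replicate 1 or 2 (−1.45 and −1.46), *Elf4-/-*-Control replicate 1 or 2 (−1.58 and −1.31) or *Elf4-/-*-EtOH replicate 1 (−1.23), and in a fit of the 4 libraries alone.

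*Irf1*, an activator of IFN-gamma targets, had 81.4 and 76.2 CPM in WT-Control, 40.3 and 38.9 CPM in WT-EtOH, 65.4 and 58.3 CPM in *Elf4-/-*-Control and 33.5 and 42.3 CPM in *Elf4-/-*-EtOH livers. It fell 1.99-fold in WT (−0.99 ± 0.19, edgeR adjusted p = 0.00686), a call lost without WT-EtOH replicate 1 (−1.02) or 2 (−0.97) and with library totals alone (−0.57), and had a value of −0.71 ± 0.18 in *Elf4-/-* livers (edgeR adjusted p = 0.0674).

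*Stat2* and *Irf9* encode subunits of the complex that binds the ISRE. *Stat2* had 313 and 246 CPM in WT-Control, 144 and 153 CPM in WT-EtOH, 256 and 229 CPM in *Elf4-/-*-Control and 177 and 251 CPM in *Elf4-/-*-EtOH livers. It fell 1.88-fold in WT (−0.91 ± 0.24, edgeR adjusted p = 0.0239). The call was lost without WT-Control replicate 1 (−0.73), WT-EtOH replicate 1 (−0.86) or WT-EtOH replicate 2 (−0.97). *Irf9* went from 59.4 and 59.6 to 39.7 and 37.2 CPM in WT (−0.63 ± 0.18, edgeR adjusted p = 0.0331), and was at 67.5 and 55.2 CPM in *Elf4-/-*-Control and 47.0 and 51.5 CPM in *Elf4-/-*-EtOH livers. It overlaps *Rnf31* on the same strand, and its call was lost without either WT-Control replicate (−0.64 and −0.63) or either WT-EtOH replicate (−0.68 and −0.59). It did not pass in DESeq2 (adjusted p = 0.0638), with no filter (−0.61), or under scaling to library totals that counted or left out mitochondrial genes (−0.21 and −0.52). The *Stat2* call was lost with library totals alone (−0.49).

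*Irf7*, which drives the induction of type I interferon genes, had 55.0 and 57.7 CPM in WT-Control and 35.8 CPM in each of the WT-EtOH libraries. It was at 49.5 and 54.9 CPM in *Elf4-/-*-Control and 32.5 and 42.9 CPM in *Elf4-/-*-EtOH livers. *Irf7* fell 1.57-fold in WT (−0.65 ± 0.19, edgeR adjusted p = 0.0361). The call did not pass in DESeq2 (−0.66), with no filter (−0.63) or under scaling to library totals that counted or left out mitochondrial genes (−0.23 and −0.54), and it was lost without any one of the 4 WT libraries (−0.69 to −0.62) or either *Elf4-/-*-Control library (−0.66 in both cases). *Irf3*, the factor that acts first downstream of the nucleic acid sensors, ranged from 62.3 to 104 CPM over the 8 libraries and passed in no contrast. *Irf3* and *Irf7* lie across from *Bcl2l12* and *Phrf1*, genes of the other strand, and whether strand was used in counting is not given in the sources used here, so that shared reads cannot be told apart.

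The 4 sensors of foreign nucleic acid gave 1 call, lower with alcohol in WT, where 11.2% of all genes were called lower. *Ddx58* (RIG-I, a cytoplasmic RNA sensor) had 36.7 and 35.6 CPM in WT-Control, 18.6 and 16.7 CPM in WT-EtOH, 36.3 and 36.4 CPM in *Elf4-/-*-Control and 19.8 and 31.2 CPM in *Elf4-/-*-EtOH livers. It fell 2.05-fold with alcohol in WT (−1.03 ± 0.23, edgeR adjusted p = 0.0135). Leaving out WT-Control replicate 1 (−1.01), WT-EtOH replicate 1 (−1.11) or WT-EtOH replicate 2 (−0.96) lost the call, as did scaling by library totals alone (−0.61). *Ifih1* (MDA5, which detects long double-stranded RNA) had 22.0 and 27.6 CPM in WT-Control and 15.7 and 19.0 CPM in WT-EtOH livers (−0.51 ± 0.21, edgeR adjusted p = 0.107), and 24.5 to 30.1 CPM in the 4 *Elf4-/-* libraries. *Zbp1*, a sensor of Z-form nucleic acid that can start cell death, had 17.5 to 19.2 CPM in the 4 WT libraries. Its levels in *Elf4-/-* livers were 14.8 and 7.12 CPM on the control diet and 17.0 and 32.8 CPM with EtOH (1.17 ± 0.37, edgeR adjusted p = 0.107), with replicate 2 of the EtOH group apart from the rest. *Dhx58* (LGP2, which tunes the other RNA sensors) had 8.57 to 17.0 CPM over the 8 libraries and passed in no contrast.

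The *Oas* family, enzymes that make the messenger which activates RNase L, gave no call among 8 tested genes in any of the 5 contrasts. This held for edgeR and for DESeq2. For alcohol in WT edgeR called 11.6% of all genes higher and 11.2% lower. At an unadjusted p under 0.05, 0 or 1 of the 8 was higher and 0 or 1 lower in each contrast. Over all genes 4.37% to 18.8% were higher and 3% to 18.6% lower. The *Oas* genes summed to 75.3 and 49.2 CPM in WT-Control, 55.1 CPM in each WT-EtOH library, 71.3 and 59.7 CPM in *Elf4-/-*-Control and 61.5 and 52.3 CPM in *Elf4-/-*-EtOH livers, so that the groups overlapped. *Oas1b*, annotated as a polymorphic pseudogene, went from 10.5 and 6.53 to 3.5 and 5.81 CPM with alcohol in *Elf4-/-* livers (−0.87 ± 0.38, edgeR adjusted p = 0.214). *Oas1a* had 2.39 to 6.03 CPM and *Oasl2* 11.3 to 19.8 CPM over the 8 libraries. Reads of the *Oas1* copies, which lie together and are close in sequence, may have been shared or dropped.

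The immunity-related GTPases are induced by IFN-gamma and act on the membranes that surround intracellular microbes. *Iigp1* was measured at 634 and 623 CPM in WT-Control, 310 and 208 CPM in WT-EtOH, 435 and 438 CPM in *Elf4-/-*-Control and 331 and 524 CPM in *Elf4-/-*-EtOH livers. It fell 2.43-fold with alcohol in WT (−1.28 ± 0.29, edgeR adjusted p = 0.0136), a call lost without WT-Control replicate 1 (−1.27) or WT-EtOH replicate 2 (−1.03). In *Elf4-/-* livers its value was −0.03 ± 0.28 (edgeR adjusted p = 0.963), and it became 0.27 without *Elf4-/-*-EtOH replicate 1.

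The other 4 GTPases of the group did not pass. *Irgm1* had 56.7 and 75.6 CPM in WT-Control, 51.1 and 37.8 CPM in WT-EtOH, 43.7 and 41.0 CPM in *Elf4-/-*-Control and 60.5 and 91.0 CPM in *Elf4-/-*-EtOH livers. *Igtp* had 50.9 and 48.2 CPM in WT-Control, 48.3 and 49.3 CPM in WT-EtOH, 45.2 and 37.1 CPM in *Elf4-/-*-Control and 58.3 and 120 CPM in *Elf4-/-*-EtOH livers. With alcohol in *Elf4-/-* livers their values were 0.84 ± 0.25 for *Irgm1* (edgeR adjusted p = 0.0931) and 1.11 ± 0.29 for *Igtp* (edgeR adjusted p = 0.0696, DESeq2 adjusted p = 0.0168). The *Igtp* value was 0.48 without *Elf4-/-*-EtOH replicate 2, and *Igtp* overlaps *Irgm2* on the same strand.

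The guanylate-binding proteins, larger GTPases that coat the same membranes, gave no call among 11 genes by edgeR in any of the 5 contrasts, with 5 higher and 1 lower at an unadjusted p under 0.05 for alcohol in WT (18.8% and 18.6% of all genes were) and 4 higher and 0 lower for alcohol in *Elf4-/-* livers (11.3% and 10.6% of all genes were). DESeq2 called *Gbp2b* and *Gbp5* higher and *Gbp10* lower in WT, where it called 1432 of 13145 genes higher and 1383 lower. It called *Gbp6* higher in *Elf4-/-* livers, where it called 452 of 12380 genes higher and 359 lower. *Gbp6* had 5.59 and 4.75 CPM in WT-Control, 4.18 and 4.90 CPM in WT-EtOH, 2.56 and 0.891 CPM in *Elf4-/-*-Control and 4.94 and 9.11 CPM in *Elf4-/-*-EtOH livers (with alcohol in *Elf4-/-*, 1.97 ± 0.50, edgeR adjusted p = 0.0651, DESeq2 adjusted p = 0.0154). *Gbp2* went from 1.12 and 0.891 to 3.82 and 3.17 CPM in *Elf4-/-* livers (1.76 ± 0.50, edgeR adjusted p = 0.0836) and from 1.30 and 2.56 to 4.18 and 4.80 CPM in WT livers (1.21 ± 0.48, edgeR adjusted p = 0.094).

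*Gbp11* (chromosome 5, 105323042 to 105346472, minus strand), listed as a polymorphic pseudogene, had 1406 counts in *Elf4-/-*-EtOH replicate 2 and 166 to 258 in the other 7 libraries. Its value with alcohol in *Elf4-/-* livers was 2.30 ± 0.67 (edgeR adjusted p = 0.0878), and 0.38 without that library. *Gbp10* had 7 CPM in the same library, 2.39 CPM in its replicate and 1.27 and 0.919 CPM in WT-EtOH livers. *Gbp2b* had 18.5 and 14.7 CPM in WT-EtOH and 2.39 to 8.69 CPM in the other 6 libraries (with alcohol in WT, 1.42 ± 0.52, edgeR adjusted p = 0.0764). *Gbp4*, *Gbp8* and *Gbp9* overlap each other, and *Gbp6* and *Gbp10* each overlap the gene model *Gm43302*, so that their separate counts are uncertain.

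**Figure D3:**
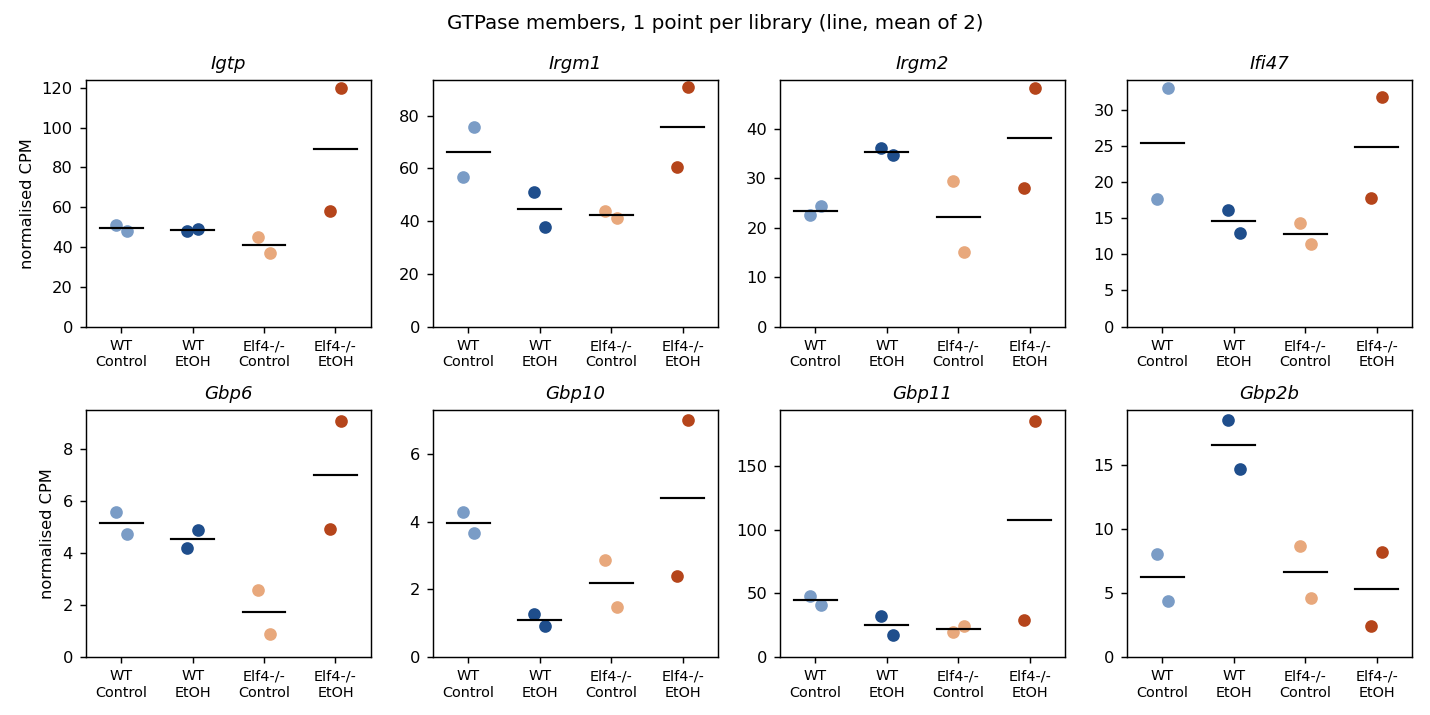
Normalised CPM (vertical axes, from 0) of 8 GTPase members in the 8 libraries, with 1 point per library and a line at the mean of 2. *Elf4-/-*-EtOH replicate 2 (the upper point of that group in all 8 panels) carried most of the height of *Gbp11*, which was at 186 CPM there and at 28.7 CPM in replicate 1.

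Genes of the *Ifi200* family, which encode DNA-binding proteins with pyrin domains, lie in a cluster on chromosome 1. All 8 tested members had a positive value with alcohol in WT, with a median log2 fold change of 1.10 (0.01 over all genes). Of the 8, 3 passed as higher, where 11.6% of all genes did. The summed level of the family was 56.8 and 32.9 CPM in WT-Control, 99.4 and 106 CPM in WT-EtOH, 89.2 and 69.5 CPM in *Elf4-/-*-Control and 84.0 and 62.6 CPM in *Elf4-/-*-EtOH livers. The WT-EtOH libraries were the highest and the WT-Control libraries the lowest, and the *Elf4-/-* groups overlapped each other. With alcohol in *Elf4-/-* livers 4 of 8 values were positive, the median was 0.03, and edgeR and DESeq2 called 0 (0 at an unadjusted p under 0.05). Over all genes there, edgeR called 1.94% higher and 1.34% lower, and 11.3% and 10.6% had an unadjusted p under 0.05. DESeq2 called 452 of 12380 genes higher there and 359 lower.

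*Ifi204*, which senses cytoplasmic and nuclear DNA (chromosome 1, 173747293 to 173766943, minus strand), had 5.03 and 4.57 CPM in WT-Control, 20.3 and 16.9 CPM in WT-EtOH, 10.2 and 9.20 CPM in *Elf4-/-*-Control and 16.9 and 9.38 CPM in *Elf4-/-*-EtOH livers. It rose 3.86-fold with alcohol in WT (1.95 ± 0.33, edgeR adjusted p = 0.00471), also without any single library (1.82 to 2.07). In *Elf4-/-* livers the value was 0.42 ± 0.30 (edgeR adjusted p = 0.442), and it became −0.05 when *Elf4-/-*-EtOH replicate 1 was left out. *Ifi203* had 23.3 and 12.1 CPM in WT-Control, 34.5 and 38.6 CPM in WT-EtOH, 38.9 and 31.3 CPM in *Elf4-/-*-Control and 27.1 and 25.5 CPM in *Elf4-/-*-EtOH livers. It rose 2.07-fold in WT (1.05 ± 0.28, edgeR adjusted p = 0.0268) and had a value of −0.42 ± 0.27 in *Elf4-/-* livers (edgeR adjusted p = 0.398).

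The call of *Ifi203* in WT was lost without WT-Control replicate 2 (0.65), WT-EtOH replicate 1 (1.13) or WT-EtOH replicate 2 (0.96). *Ifi203-ps*, annotated as a pseudogene, rose 3.71-fold in WT (1.89 ± 0.43, edgeR adjusted p = 0.0147), a call lost without WT-Control replicate 2 (1.41) or WT-EtOH replicate 2 (1.60). *Ifi211* went from 1.30 and 0.365 to 4.56 and 2.35 CPM in WT (2.02 ± 0.77, edgeR adjusted p = 0.0871), and *Ifi207* from 13.6 and 6.03 to 18 and 25.4 CPM (1.15 ± 0.43, edgeR adjusted p = 0.0796). These genes are close copies, and *Ifi203* and *Ifi211* each overlap *Mndal* on the same strand, so that the division of reads among them is uncertain. *Ifi205*, below the minimum for testing, had 5 and 1 counts in WT livers on the control diet, 15 and 13 with alcohol and 1 or 2 in each of the 4 *Elf4-/-* libraries.

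The *Ifitm* proteins sit in membranes and hinder the entry of viruses into cells. *Ifitm2* had 27.2 and 27.6 CPM in WT-Control, 54.3 and 39.8 CPM in WT-EtOH, 24.1 and 27.2 CPM in *Elf4-/-*-Control and 37.8 and 40.6 CPM in *Elf4-/-*-EtOH livers, and both EtOH groups lay above both control groups. It rose 1.71-fold in WT (0.78 ± 0.20, edgeR adjusted p = 0.0238), with 0.61 ± 0.20 in *Elf4-/-* livers (edgeR adjusted p = 0.119). The WT call was lost without either WT-Control replicate (0.76 and 0.78) or WT-EtOH replicate 1 (0.54). *Ifitm1* went from 7.08 and 3.11 to 17.0 and 12.4 CPM in WT (1.52 ± 0.45, edgeR adjusted p = 0.0379). That call was lost without WT-Control replicate 2 (1.04), WT-EtOH replicate 1 (1.28) or 2 (1.73), or *Elf4-/-*-Control replicate 1 or 2 (1.52 in both cases). *Ifitm3* ranged from 236 to 539 CPM and passed in no contrast. Its value in WT was negative, unlike those of *Ifitm1* and *Ifitm2*. It went from 334 and 539 CPM in WT-Control to 304 and 236 CPM in WT-EtOH livers (−0.69 ± 0.27, edgeR adjusted p = 0.0906). *Ifitm6* had 17 and 12 counts in WT-EtOH and 0 to 5 in the other 6 libraries.

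The 10 members outside these families gave no call in any of the 5 contrasts by edgeR. For alcohol in WT, 1 was higher and 1 lower at an unadjusted p under 0.05 (18.8% and 18.6% of all genes were). DESeq2 called *Ifi27l2b* lower there, where it called 1383 of 13145 genes lower and 1432 higher. *Bst2* (tetherin, which holds budding viruses at the cell surface) had 63.0 and 107 CPM in WT-Control, 136 and 144 CPM in WT-EtOH, 111 and 87.3 CPM in *Elf4-/-*-Control and 154 and 164 CPM in *Elf4-/-*-EtOH livers. Its values with alcohol were 0.73 ± 0.26 in WT (edgeR adjusted p = 0.0691) and 0.68 ± 0.26 in *Elf4-/-* livers (edgeR adjusted p = 0.162). *Rsad2* (viperin, which blocks viral RNA synthesis) had 1.93 to 7.01 CPM over the 8 libraries. Its 2 lowest values, 2.56 and 1.93 CPM, were those of *Elf4-/-*-Control libraries, and it passed in no contrast.

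The diet contrasts of the 2 genotypes share no library. Of the 12 members that fell with alcohol in WT, 9 had a negative value in *Elf4-/-* livers (75%, against 91.2% of all genes that fell in WT), and *Isg15*, *Usp18* and *Ifit1* had a positive value. Their median was −1.16 in WT and −0.25 in *Elf4-/-* livers, against −1.15 and −0.55 over all genes that fell in WT. Of the 6 that rose in WT, 5 had a positive value in *Elf4-/-* livers (83.3%, against 92.5% of all genes that rose), and *Ifi203* had a negative one. The medians of the 6 were 1.45 and 0.52, against 1.39 and 0.66.

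**Figure D4:**
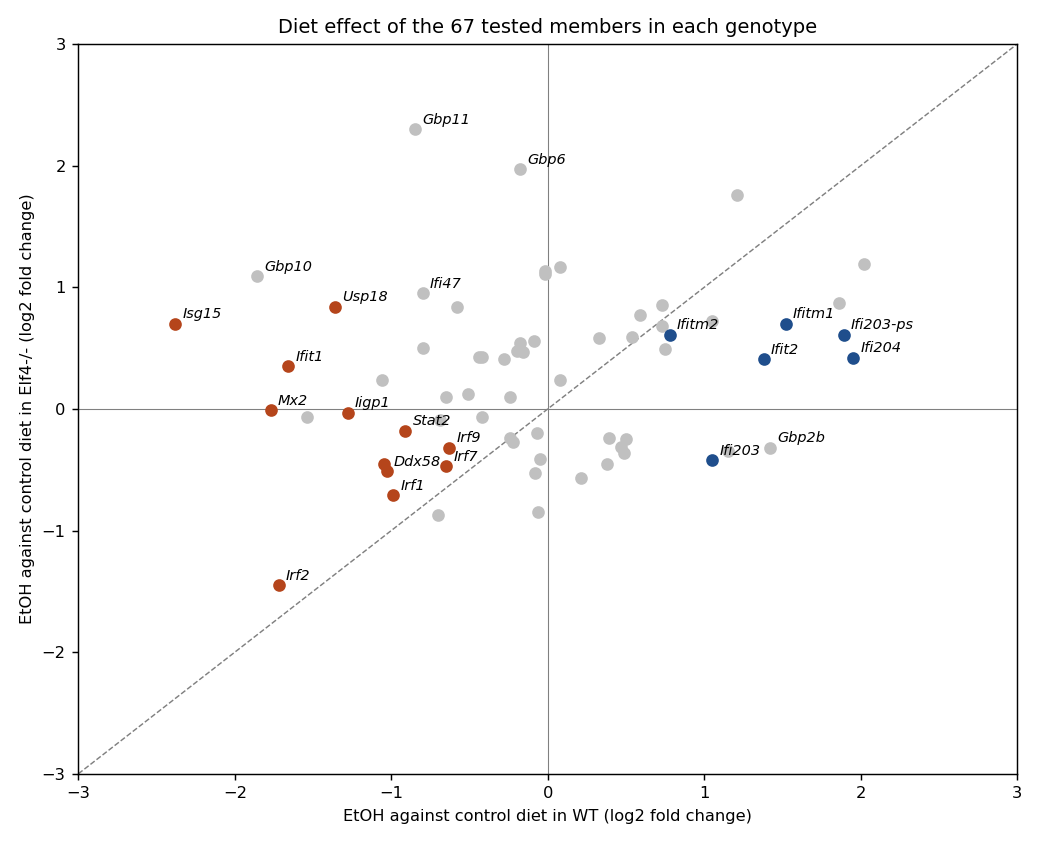
Log2 fold change with alcohol in WT (horizontal axis) and in *Elf4-/-* livers (vertical axis) for the 67 tested members, with 1 point per gene, members that fell in WT in red, members that rose in WT in blue, the rest in grey, and equal values on the dashed line. *Isg15* (−2.38 and 0.70), *Usp18* (−1.36 and 0.84) and *Ifit1* (−1.66 and 0.35) lie left of and above 0, and *Irf2* (−1.72 and −1.45) lies near the line.

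Whether the response to alcohol differed between genotypes was tested with the interaction term, the difference of the diet effects (*Elf4-/-* minus WT). EdgeR called 0 of 67 members and 0% of all genes in either direction, and 13 members were higher and 4 lower at an unadjusted p under 0.05 (661 and 694 of 13145 genes). The difference was 3.09 ± 0.40 for *Isg15* (edgeR adjusted p = 0.125), 2.01 ± 0.28 for *Ifit1* (0.14), 2.20 ± 0.44 for *Usp18* (0.224) and 1.76 ± 0.34 for *Mx2* (0.224). DESeq2 called these 4 and no other member (adjusted p = 7.71e-06, 0.00106, 0.00916 and 0.0352 in that order), among 74 genes higher and 28 lower. *Irgm1* stood at 1.42 ± 0.36 (edgeR adjusted p = 0.271), and *Ifi203* and *Ifi204* stood at −1.47 ± 0.39 and −1.53 ± 0.45 (edgeR adjusted p = 0.281 and 0.314). With single libraries left out, the edgeR value of *Isg15* ran from 2.80 to 3.32, and it passed without *Elf4-/-*-EtOH replicate 1 (2.80) or 2 (3.32). *Ifit1* likewise passed without either of them (2.15 and 1.84).

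Livers of the 2 genotypes under alcohol were compared to ask how the deletion bore on the families in the disease model. *Isg15* was the 1 member called, and it stood 3.97-fold above WT-EtOH in the *Elf4-/-*-EtOH livers (1.99 ± 0.29, edgeR adjusted p = 0.0431). This is 1.49% of members, where 0.122% of all genes passed as higher, and 0 members passed as lower, where 0.0228% of all genes did. At an unadjusted p under 0.05, 15 members were higher (22.4%, where 6.12% of all genes were) and 3 lower (4.48%, where 4.53% were). DESeq2 called *Isg15*, *Usp18* and *Ifit1* higher and none lower, where it called 148 of 12890 genes higher and 33 lower. The *Isg15* call was lost without either WT-Control replicate (1.99 in both cases), WT-EtOH replicate 1 (2.17) or 2 (1.81) or either *Elf4-/-*-Control replicate (1.99 in both cases). It was also lost under scaling to library totals that counted or left out mitochondrial genes (1.76 and 1.91), and in a fit of the 4 libraries compared. With single libraries left out, it stayed past the threshold only without *Elf4-/-*-EtOH replicate 1 (1.70) or 2 (2.23).

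Among the other members of the groups above, the values in that comparison were 1.55 ± 0.32 for *Usp18* (edgeR adjusted p = 0.141) and 1.17 ± 0.20 for *Ifit1* (edgeR adjusted p = 0.0771). By family, all 5 immunity-related GTPases had a positive value (median 0.77), as did all 4 sensors (median 0.51), whereas all 8 tested *Ifi200* genes had a negative one (median −0.36), against a median of 0.00 over all genes. The *Ifi200* values ran from −0.74 to −0.05, and reads of these close copies may be shared. The GTPases summed to 461 and 343 CPM in WT-EtOH and 496 and 815 CPM in *Elf4-/-*-EtOH livers. For the sensors the sums were 61.4 and 63.5 CPM, and 75.7 and 105 CPM. In both sets *Elf4-/-*-EtOH replicate 2 carried much of the height, so that their genes are not separate results. At an unadjusted p under 0.05, 3 GTPases and 2 sensors were higher (6.12% of all genes were) and 0 *Ifi200* genes were lower (4.53% were). *Igtp* stood at 0.87 ± 0.29 (edgeR adjusted p = 0.321) and *Ifih1* at 0.67 ± 0.21 (edgeR adjusted p = 0.292). *Gbp11* stood at 2.13 ± 0.66 (edgeR adjusted p = 0.295), and at 0.21 when *Elf4-/-*-EtOH replicate 2 was left out. *Gbp2b* stood at −1.62 ± 0.52 (edgeR adjusted p = 0.301), and at −2.80 without that library.

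On the control diet, edgeR called 0 members between the genotypes, where 0.00761% of all genes passed in each direction, and 2 members were higher (2.99%, where 4.37% of all genes were) and 8 lower (11.9%, where 3% were) in *Elf4-/-* livers at an unadjusted p under 0.05. DESeq2 called 0. *Isg15* stood at −1.10 ± 0.27 (edgeR adjusted p = 0.33), *Mx2* at −1.06 ± 0.24 (0.278), *Ifit1* at −0.84 ± 0.19 (0.282) and *Ifit3* at −0.70 ± 0.22 (0.469). In each of these 4 genes both *Elf4-/-*-Control libraries lay below both WT-Control libraries. The same libraries gave 0.99 ± 0.28 for *Ifi203* (edgeR adjusted p = 0.413) and 1.02 ± 0.33 for *Ifi204* (0.514), and the median of the 8 tested *Ifi200* genes was 0.78. The genotype contrasts share their control and EtOH libraries with the diet contrasts, so that these values are not independent of those above.

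The rest of the pathway was read from gene lists, whose counts stand against 11.2% of all genes lower and 11.6% higher with alcohol in WT. Of 21 interferon ligand genes listed, *Ifng* alone was matched in the table, with 0 to 4 counts per library, and was not tested. Of 8 receptor and kinase genes tested, *Tyk2*, a kinase of the type I receptor, fell with alcohol in WT (−0.95 ± 0.23, edgeR adjusted p = 0.0194) and 0 rose. Of 9 genes of the pathway that induces interferon, *Ikbke*, a kinase that acts on IRF3 and IRF7, fell (−1.70 ± 0.30, edgeR adjusted p = 0.00551) and 0 rose. Of 5 negative regulators, *Ptpn11* (0.82 ± 0.22, edgeR adjusted p = 0.0285) and *Samhd1* (0.84 ± 0.23, edgeR adjusted p = 0.0275) rose and 0 fell.

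Of 29 other induced antiviral genes, 4 fell with alcohol in WT and 2 rose. *Xaf1* (−1.12 ± 0.23, edgeR adjusted p = 0.00911), *Rtp4* (−0.89 ± 0.20), *Eif2ak2* (PKR, which stops translation on double-stranded RNA, −0.74 ± 0.22) and *Pml* (−0.69 ± 0.21) were lower, and *Lgals3bp* (1.23 ± 0.25, edgeR adjusted p = 0.00904) and *Tor3a* (1.61 ± 0.46) were higher. Of 15 genes typical of IFN-gamma, 3 fell and 0 rose: the chemokine *Cxcl11* (−1.90 ± 0.43, edgeR adjusted p = 0.0145), the immunoproteasome subunit *Psmb9* (−0.98 ± 0.26) and *Nlrc5*, the activator of MHC class I genes (−0.71 ± 0.20). In *Elf4-/-* livers *Lgals3bp* rose with alcohol (1.14 ± 0.24, edgeR adjusted p = 0.0411), and no other gene of these lists was called by edgeR there or between the genotypes on either diet.

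Cell type markers moved with the same contrasts, and their counts stand against 11.6% of all genes higher and 11.2% lower with alcohol in WT. All 10 Kupffer cell markers rose with alcohol in WT (median 2.01), and their summed level was 260 and 200 CPM in WT-Control, 799 and 696 CPM in WT-EtOH, 193 and 188 CPM in *Elf4-/-*-Control and 314 and 266 CPM in *Elf4-/-*-EtOH livers. Of 5 markers of the sinusoidal endothelium, 4 rose with alcohol in WT, and their summed level was 122 and 71.4 CPM in WT-Control, 245 and 295 CPM in WT-EtOH, 157 and 179 CPM in *Elf4-/-*-Control and 264 and 143 CPM in *Elf4-/-*-EtOH livers. The 6 hepatocyte markers summed to 51959 and 71958 CPM in WT-Control, 37217 and 31068 CPM in WT-EtOH, 63569 and 71269 CPM in *Elf4-/-*-Control and 41263 and 52446 CPM in *Elf4-/-*-EtOH livers. All 6 had a negative value with alcohol in WT, and 1 passed, *Apoa1* (−2.33 ± 0.43, edgeR adjusted p = 0.00669). *Ttr* stood at −0.12 ± 0.36 (edgeR adjusted p = 0.833).

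WT-EtOH livers thus held both the highest summed levels of Kupffer markers and of the *Ifi200* family and the lowest summed levels of hepatocyte markers and of *Isg15*, *Usp18*, *Ifit1* and *Mx2*. Between the genotypes under alcohol, the Kupffer markers *Cd5l* (−1.69 ± 0.22, edgeR adjusted p = 0.0279) and *Clec4f* (−1.32 ± 0.19, edgeR adjusted p = 0.0431) were lower in *Elf4-/-* livers. Over all genes 0.0228% passed as lower there. All 10 Kupffer markers were lower at an unadjusted p under 0.05, where 4.53% of all genes were. The 6 markers of monocytes and recruited macrophages summed to 77 to 190 CPM over the 8 libraries, much of it *Spp1* (58.1 to 173 CPM). Of the 4 tested, 3 had a positive value with alcohol in WT. *Lyz2* passed (2.10 ± 0.31, edgeR adjusted p = 0.00332), and *Spp1* had a negative value (−0.93 ± 0.39, edgeR adjusted p = 0.113). The 3 markers of plasmacytoid dendritic cells summed to 16.1 to 27.4 CPM, most of it *Tcf4* (13.7 to 25.2 CPM). *Siglech* had 0.478 to 2.97 CPM and *Ccr9* 0.159 to 1.64 CPM. For other blood cells the sums were 3.86 to 11.5 CPM for 8 markers of T and NK cells, 4.14 to 13.5 CPM for 4 of B cells and 0.92 to 13.2 CPM for 3 of neutrophils. The part of these cell types in the members' values was not tested.

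**Figure D5:**
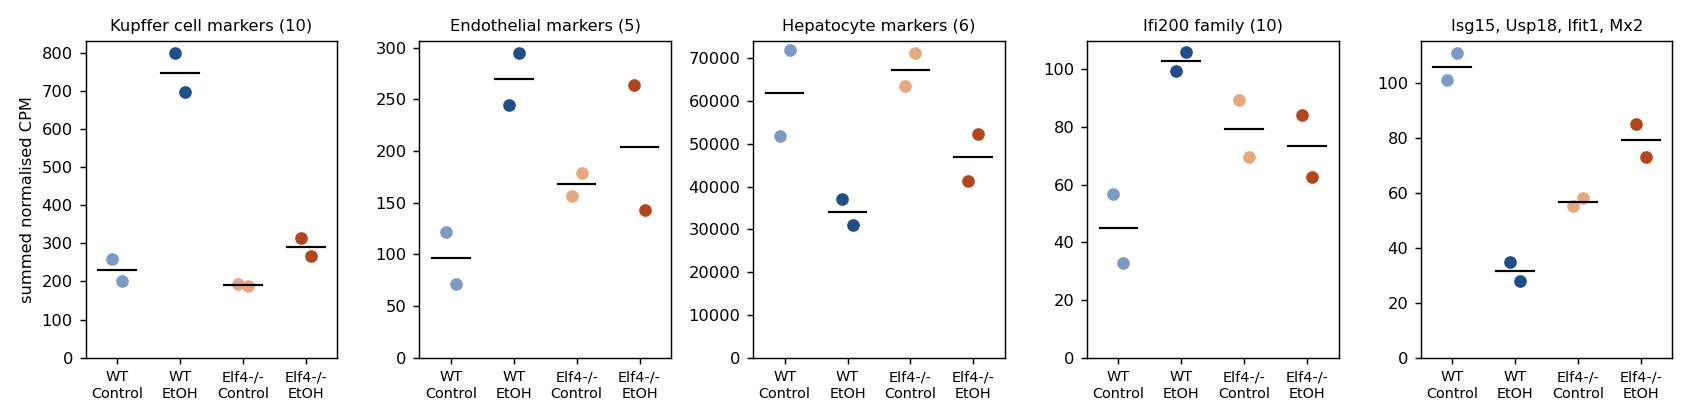
Summed normalised CPM (vertical axes, from 0) of Kupffer, endothelial and hepatocyte markers, of the 10 *Ifi200* genes and of *Isg15*, *Usp18*, *Ifit1* and *Mx2*, with 1 point per library and a line at the mean of 2. The Kupffer sum reached 799 and 696 CPM in WT-EtOH livers, where the sum of the 4 interferon-stimulated genes was lowest (35.0 and 28.1 CPM, against 101 and 111 CPM in WT-Control).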

How the data were processed

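Liver RNA (8 libraries in 4 groups) was sequenced by the authors on an Illumina HiSeq as paired reads, mapped to mm10 with HISAT2, sorted with SAMtools and counted per gene with HTSeq, per the study's methods and the submitters' processing notes. The deposited values are raw counts per gene and library, not normalised. Versions, annotation and the strand setting are not given in the sources used here. The table names genes by symbol, its columns were matched to the samples by title, and 0 columns with values were left unused.

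Counts were tested with the edgeR 4.0.16 quasi-likelihood test in R 4.3.3 (TMM scaling, 1 fit of all 8 libraries, a minimum mean of 10 counts per gene), with Benjamini-Hochberg adjustment over 13145 genes and a threshold of 0.05. The common biological coefficient of variation was 22.4%. The 5 contrasts were diet in each genotype, genotype on each diet, and their interaction. Log2 fold changes are given with their SE. The script was tested on simulated data. DESeq2 1.42.0, DESeq2 size factors, library totals alone, library totals without mitochondrial genes (chosen after seeing the data), other filters, a replicate block, the 4 libraries compared alone and leaving out each library were the alternatives.

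The members and gene lists were chosen with earlier results of these data known. Named members were those past the threshold in any contrast, 24 fixed genes, and the 3 with the largest and the 3 with the smallest value per contrast, and *Ifi205*, *Ifitm3* and *Ifitm6* were added after their values were seen. Outside the members, genes of the fixed lists past the threshold and cell type markers were named. The replicate numbers did not pair the libraries (correlations of deviations from the group means, −0.118 to 0.0735 over 13145 genes). Gene positions are those of GENCODE M21 (GRCm38). Promoter sequences are from RefSeq (GRCm38.p6), where 54 of 75 members matched by symbol. Some members that enter the counts are not reported here by name.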

Additional observations from a re-analysis of the deposited data

How the results depend on the processing

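The 94 gene values read under the alternatives were mostly picked for a call, an extreme value or an unadjusted p under 0.05. The rest were the values in *Elf4-/-* livers of members called with alcohol in WT. That choice favours a stable sign, so the stability of direction was not tested. Of the 94, 4 reversed, all for alcohol in *Elf4-/-* livers when 1 library was left out. There *Ifi204* ran from −0.05 to 0.77, *Iigp1* from −0.42 to 0.27, *Mx2* from −0.10 to 0.06 and *Stat2* from −0.48 to 0.05. The calls also moved. Of 18 calls for alcohol in WT, 5 (*Mx2*, *Irf2*, *Ifit1*, *Isg15* and *Ifi204*) passed under every alternative, and 13 under every alternative that kept all 8 libraries or the 4 compared. For genotype under EtOH, members called higher numbered 3 with DESeq2, 2 with no filter, and 0 with library totals alone, library totals without mitochondrial genes, the replicate block or the 4 libraries alone, and 0 to 5 with 1 library left out (called lower, 0 to 2). For alcohol in WT, members called higher numbered 16 with library totals alone, 11 with the 4 libraries alone and 2 to 12 with 1 library left out, and called lower 7 with library totals alone and 4 to 16 with 1 library left out. For alcohol in *Elf4-/-* livers, called higher numbered 2 with DESeq2 or no filter and 0 to 3 with 1 library left out, and called lower 0 with the 4 libraries alone and 0 to 5 with 1 library left out. For the interaction, called higher numbered 4 with DESeq2, 2 with no filter and 0 to 3 with 1 library left out, and called lower 0 to 1. On the control diet 0 were called between genotypes under every alternative. The calls over all genes moved as well, also with 1 library left out. For alcohol in WT 1526 genes were higher and 1471 lower in the main fit, and 3368 and 617 with library totals alone. For genotype under EtOH 16 were higher and 3 lower in the main fit, and 148 and 33 with DESeq2. The cause of these moves was not tested, other than that leaving out a library or fitting 4 leaves fewer samples. Library totals alone moved the median of all genes to 0.43 for alcohol in WT, 0.24 for genotype under Control, −0.23 for genotype under EtOH and −0.46 for the interaction. With the replicate block 7 members were called higher and 12 lower for alcohol in WT and 0 higher for genotype under EtOH, where *Isg15* stood at 1.98. With 2 libraries per group and a mean as low as 10 counts, calls of genes such as *Gbp2*, *Gbp5* and *Ifi211* depended on the setting. For alcohol in WT none of them passed in the main fit. *Gbp5* passed as higher with DESeq2, library totals alone, no filter and the 4 libraries alone. *Gbp2* passed with library totals alone, and *Ifi211* with library totals alone and the replicate block. The part of depth was not tested.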
